A study of Mus musculus with 20 samples.

Results

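Transcript levels of mouse brain at embryonic stage E12.5 were compared with those of whole fixed embryos at stage E10.5, using 8 of the 20 libraries of the series, 4 of each tissue. The members were taken from the labels: the 2 IgG and the 2 anti-G3BP1 libraries of E12.5 brain, and the 2 IgG and the 2 anti-G3BP1 libraries of the E10.5 embryo whose treatment is labelled as fixed. All 8 are from wild-type C57BL/6J mice and were made for MAPIT-seq after fixation with 0.2% FA (formaldehyde). In that assay an antibody against the stress granule protein G3BP1, or rabbit IgG as its control, is bound by a guinea pig anti-rabbit antibody and then by rAPOBEC1-pAG-hADAR2, a pair of RNA deaminases fused to protein A/G. The same poly(A) RNA libraries give expression levels, which are the subject here. E12.5 brain is labelled fresh frozen in its treatment, so tissue, stage, preparation and the table in which the values were deposited change together and cannot be told apart. The labels give neither a brain region nor the number of embryos behind a library, and nothing says that replicates are separate animals, so the tests reflect the variation among these 8 libraries, part or all of which may be technical. Levels of 2 untreated fixed embryo libraries and of 4 E16.5 brain libraries are given at some genes as a description, without a test.

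Between these days the mouse neural tube turns from a mostly dividing neuroepithelium into a layered tissue with many young neurons. Its regions are set apart by transcription factors: Otx2 marks the forebrain and midbrain, the Engrailed genes the border of midbrain and hindbrain, and Hox genes the hindbrain and spinal cord. A whole E10.5 embryo holds this tube together with a beating heart, somites, limb buds, a liver bud, gut endoderm, skin ectoderm and circulating primitive red cells. In such bulk samples, fewer cells of a type and less RNA per cell cannot be told apart.

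The deposited unit is TPM, transcript abundance corrected for gene length and scaled to 1000000 per library, rescaled here over the 26596 genes listed for both tissues, which held 99.7% or more of the TPM of every library. Depth was therefore read from the deposited editing tables: at the 8997 sites listed for both tissues the embryo libraries averaged 87.0 to 192 reads per site, and the brain libraries 46.8 to 57.04 except IgG replicate 1, which had 18.0. Genes at or above 1 TPM numbered 17102 to 17989 per library. Pearson correlations across genes on the log2 scale, which are not independent replicates, ran from 0.965 to 0.977 among embryo libraries, from 0.911 to 0.945 among brain libraries and from 0.813 to 0.864 between the tissues. Of the 20248 genes tested, 601 were listed at 0 in all 4 brain libraries and 46 in all 4 embryo libraries. The embryo table as deposited lists no gene at 0 in all of its libraries, whereas the E12.5 brain table lists 10132 such genes.

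The tissues differed at 48.9% of the genes tested. By limma with Benjamini-Hochberg adjustment at 0.05, 5932 genes (29.3% of those tested) were higher in E12.5 brain and 3972 (19.6%) were higher in the embryo. With the additional demand of a 2-fold difference on log2(TPM + 1) these were 2944 (14.5%) and 2140 (10.6%). Libraries of the tissues did not overlap at 5242 genes with brain higher (25.9%) and at 3582 with the embryo higher (17.7%). The shares of 29.3% and 19.6% are the background for the counts per gene list below. A gene was tested if it reached 1 TPM in at least 2 of the 8 libraries. Of the tested genes, 864 reached 1 TPM in brain libraries only and 995 in embryo libraries only, so the filter largely fixed their direction. Nr2e1, Helt, Gria2 and Slc17a6, described below, are among the first. The balance depends on the scaling: with median ratio scaling in place of TPM the median gene moved from 0.13 to -0.04 on the log2 scale, 4517 genes were higher in brain and 5204 in the embryo, and the brain share of the calls was 46.5% in place of 59.9%. The far ends of the distribution lay on the embryo side. At 8-fold or more, 271 genes were called higher in the embryo and 188 in brain. The 7959 genes listed for brain only, and the 773 listed for the embryo only, could not enter the test. The part of this listing and of read depth in the imbalance was not tested.

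**Figure D1:**
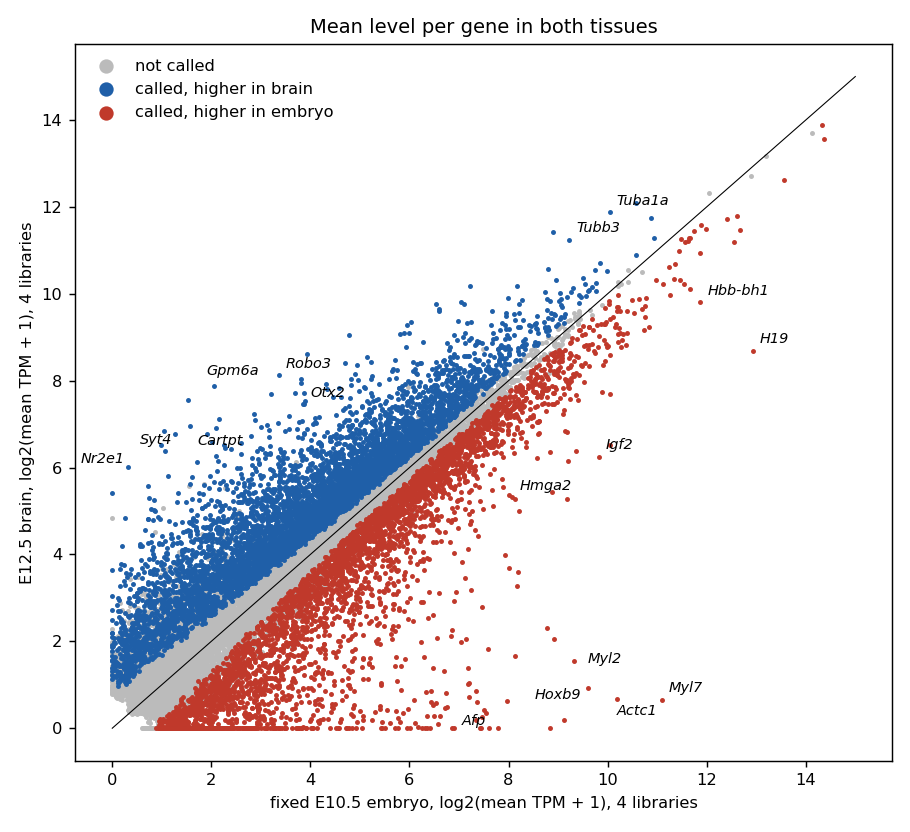
Mean level of each tested gene in fixed E10.5 embryo (x axis) and E12.5 brain (y axis), both as log2(mean TPM + 1) over 4 libraries, with the diagonal as a line; blue and red points are genes called higher in brain and in embryo. Heart genes (Myl7, Actc1, Myl2) and Hoxb9 lie along the lower edge, near 0 in brain, while Gpm6a, Robo3 and Tubb3 lie above the diagonal.

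The 10 named genes with the largest excess in brain were neural. These genes, and the 10 with the largest excess in the embryo, were picked among genes whose libraries did not overlap between the tissues. Their lack of overlap is therefore part of the choice and no further result. Per library, values are given throughout in the order IgG replicates 1 and 2, then anti-G3BP1 replicates 1 and 2. Gpm6a, a neuronal membrane glycoprotein, stood at 281, 284, 192 and 179.5 TPM in brain and at 2.31, 3.70, 2.42 and 4.18 TPM in the embryo (log2 difference 5.82 ± 0.20 (SE), adjusted p = 3.74e-07, limma). In GENCODE M21 (GRCm38) the Gpm6a gene lies at chr8:54954843-55060871 on the plus strand. Nr2e1, also called Tlx, a nuclear receptor of forebrain progenitors, was at 68.2, 53.6, 66.7 and 67.5 TPM against 0.267, 0, 0.420 and 0.268 TPM (log2 5.72). Helt, a bHLH-Orange factor of GABAergic progenitors in the midbrain, was at 45.5, 48.0, 29.7 and 42.8 TPM in brain and listed at 0 in all 4 embryo libraries. Robo3, which lets commissural axons cross the midline, was at 241, 271, 344 and 265 TPM against 14.4, 5.97, 4.21 and 12.4 TPM. The other members were Cartpt, a neuropeptide precursor (122 ± 18.4 against 1.98 ± 1.17 TPM, mean ± SD, n = 4 each), the synaptotagmin Syt4, Tmem130, Erfl, the secreted synaptic protein C1ql4 and the antisense transcript Dmrta2os. In C1ql4 the brain libraries themselves spread widely, at 58.1, 168, 308 and 212 TPM, with the shallow IgG replicate 1 lowest. The embryo range was 1.35 to 2.52 TPM.

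The 10 named genes with the largest excess in the embryo were heart, trunk patterning and yolk sac or liver genes. Myl7, the atrial myosin regulatory light chain, was at 1809, 2280, 2543 and 2101 TPM in the embryo and at 0, 2.31, 0 and 0 TPM in brain, so a single brain library held any of it (log2 difference -10.65 ± 0.36, adjusted p = 3.64e-07). The untreated embryo libraries had 3099 and 2758 TPM. The Myl7 gene lies at chr11:5896637-5898782 on the minus strand. Actc1, the alpha-cardiac actin, was at 1169 ± 161 TPM against 0.601 ± 1.20 TPM, and Myl2, the ventricular light chain, at 776 ± 147 against 0.887 ± 1.35 TPM. Hoxb9, a patterning factor of the trunk, was at 692, 439, 483 and 602 TPM in the embryo and at 0, 0.529, 0 and 0 TPM in brain. Hoxb8 and Tnni1, the slow skeletal and embryonic cardiac troponin I, had log2 differences of -7.43 and -7.26. Hoxb5os, Afp, Myl3 and Hoxc6 were listed at 0 in all 4 brain libraries, against embryo ranges of 340.2 to 517, 195 to 267, 169 to 215 and 146 to 226 TPM.

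Genes of postmitotic neurons were higher in brain almost without exception. Of 20 pan-neuronal genes tested, 19 were higher in brain and none was higher in the embryo (median log2 difference 2.12, against 0.13 over all genes). Tubb3, the neuronal beta-tubulin, was at 2299, 2768, 2304 and 2343 TPM in brain and at 782, 423, 496 and 671 TPM in the embryo, so the embryo held a clear neuronal signal too, and no libraries overlapped. Mapt, the microtubule-binding tau protein, was at 133, 134, 103 and 94.7 against 12.2, 7.84, 4.75 and 6.95 TPM, a larger relative difference (log2 3.76 ± 0.16, adjusted p = 1.01e-06). Stmn4, a neuronal stathmin, was at 328 ± 39.5 against 29.6 ± 8.38 TPM. The summed level of these genes was 5236 to 6342 TPM in brain and 1205 to 2060 TPM in the embryo. At E16.5, Tubb3 stood at 3496 to 3655 TPM.

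The machinery of axons, synapses and excitability followed the same direction. All 27 microtubule, stathmin and motor genes tested were higher in brain (median log2 1.78). Kif1a, the motor of synaptic vesicle precursors, was at 78.3 ± 21.3 against 7.67 ± 1.47 TPM, and Stmn3 at 802 ± 119.5 against 96.1 ± 20.3 TPM. Of 25 synaptic vesicle and active zone genes, 24 were higher in brain and none in the embryo (median log2 1.59). Syt4 was at 82.7, 98.0, 73.8 and 73.5 TPM in brain and 1.34, 1.34, 1.4 and 0.256 TPM in the embryo (log2 5.36 ± 0.21, adjusted p = 6.28e-07). Synaptophysin (Syp) was at 84.5 ± 16.52 against 7.11 ± 2.40 TPM, and the fast calcium sensor Syt1 at 24.0 ± 6.12 against 2.79 ± 0.695 TPM. Among voltage-gated channels and transmitter receptor subunits, 22 of 24 were higher in brain (median log2 2.197, or 3.21 and 1.43 with pseudocounts of 0.1 and 5). The AMPA receptor subunit Gria2 was at 18.6, 20.7, 14.9 and 19.3 TPM in brain and 0.925, 0.717, 0.275 and 0.961 TPM in the embryo. Gria2 thus passed the filter only through brain, and its direction is a description. The embryonic sodium channel Scn3a was at 19.8 ± 5.33 against 1.27 ± 0.457 TPM.

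Promoter sequence was searched for a known repressor element. The repressor REST silences neuronal genes outside neurons through a long element, RE1, whose left part reads TTCAGCACC. RefSeq promoter windows of GRCm38.p6, which run from 250 bases before to 50 bases after a start site, were found for 12851 tested genes and searched on both strands. These were 16372 windows, and a gene was counted when any of its windows held a match. The letters were present in 0.521% of these genes, in 1.14% of those 2-fold higher in brain and in 0.284% of those 2-fold higher in the embryo. Among 25 synapse genes, 18 had a window and 2 of them held the letters, Syn1 and Unc13a, in the latter on the opposite strand and after the start site. Of 15 hypothalamic genes with a window, 2 also held the letters, Six6 and Lhx3, and Lhx3 was lower in brain. So did 1 gene in each of the forebrain, Dlx and GABAergic, transmitter and BMP lists. The letters were in none of the 10 pan-neuronal, 14 channel, 16 cytoskeleton and 23 guidance genes with a window. The 250 bases before the Syn1 start site (chrX:20920919-20921168, minus strand) are shown since Syn1, the vesicle phosphoprotein synapsin, differed (40.0 ± 16.1 against 12.6 ± 4.55 TPM, adjusted p = 0.000666); capitals mark the match, which begins 232 bases before the start site.
Syn1: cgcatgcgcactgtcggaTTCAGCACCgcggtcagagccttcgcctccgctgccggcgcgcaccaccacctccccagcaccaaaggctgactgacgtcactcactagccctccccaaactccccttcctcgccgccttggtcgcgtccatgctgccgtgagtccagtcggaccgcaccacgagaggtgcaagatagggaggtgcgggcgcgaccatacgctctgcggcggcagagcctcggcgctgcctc
A match is a description of these letters and does not show binding.

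Of the 16 transmitter genes tested, 7 were higher in brain and 2 in the embryo. Slc17a6, the vesicular glutamate transporter of the diencephalon and midbrain, was at 63.8, 54.2, 34.2 and 35.8 TPM in brain and 0.827, 0.688, 0.216 and 0.830 TPM in the embryo (log2 4.84). Like Gria2, Slc17a6 passed the filter only through brain, and its direction is a description. The GABA genes Gad1, Gad2 and Slc32a1, which make and package the transmitter, were at 27.2 ± 3.35, 31.1 ± 8.30 and 37.4 ± 8.79 TPM in brain. In the embryo each of the 3 stayed below 2 TPM in every library. Slc18a3, the vesicular acetylcholine transporter, was at 4.84, 0.564, 0.605 and 0 TPM in brain against 39.5, 18.5, 25.3 and 26.6 TPM in the embryo (log2 -3.81, adjusted p = 0.000222). Chat, the synthesizing enzyme, was listed at 0 in 3 of 4 brain libraries and averaged 2.09 ± 1.68 TPM in the embryo (adjusted p = 0.0244). The motor neuron factors Isl1 and Lhx3 were also lower in brain, at 11.2 ± 7.41 against 59.1 ± 5.44 TPM and at 0.796 ± 0.690 against 28.3 ± 6.53 TPM. In Isl1 the brain libraries ranged over 2.95 to 20.1 TPM and stayed below the embryo range of 52.1 to 64.7 TPM.

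Regional factors of the neural tube were not uniformly high in brain. Of 20 forebrain factors tested, 15 were higher in brain and 2 in the embryo (median log2 2.30). Of 21 midbrain and hindbrain factors, 11 were higher in brain and 6 in the embryo. Factors used in the diencephalon and midbrain were high in brain. Otx2 was at 197, 186, 165 and 155 TPM in brain and 16.4, 10.6, 14.9 and 12.04 TPM in the embryo (log2 3.62 ± 0.15, adjusted p = 7.67e-07). Tcf7l2, strong in the thalamus, was at 247, 189.9, 262 and 288 against 13.9, 15.9, 11.9 and 10.7 TPM. Barhl2, a diencephalic homeobox factor, was at 150.4 ± 12.1 against 6.29 ± 2.30 TPM, and Tal2, a factor of midbrain GABAergic neurons, at 95.9 ± 12.2 against 3.01 ± 1.22 TPM. Both showed no overlap between the tissues.

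Some regional factors stood in another order at E16.5. Tbr1, a factor of early cortical neurons, had 15.6, 10.8, 4.26 and 2.13 TPM in E12.5 brain, where the IgG libraries were highest, and 141 to 162 TPM at E16.5. Emx2, which is shared by cortex and diencephalon, had 38.2, 45.5, 57.1 and 57.6 TPM and 24.5 to 30.9 TPM. Otx2 and Tcf7l2, which were high at E12.5, had 8.20 to 12.3 and 8.29 to 9.77 TPM at E16.5. These E16.5 values come from another table and stage and were not tested against E12.5. Neural markers were present in the libraries labelled E12.5 brain, and the label names no region.

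**Figure D2:**
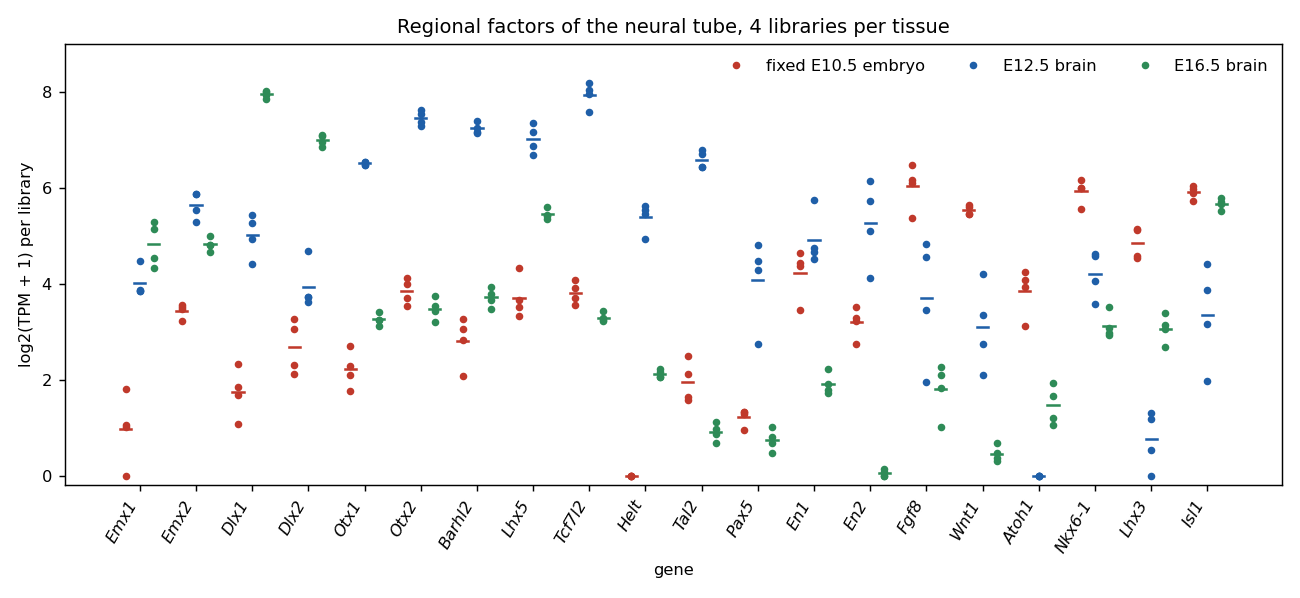
Level of 20 regional transcription and signalling factors as log2(TPM + 1) in each library of fixed E10.5 embryo (red), E12.5 brain (blue) and E16.5 brain (green), 4 libraries each, with a bar at the mean. Otx2, Barhl2, Tcf7l2, Helt and Tal2 were high in E12.5 brain, and Atoh1 and Lhx3 were at or near 0 in E12.5 brain.

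At the border of midbrain and hindbrain the members split. The homeobox factor En2 was at 42.7 ± 23.0 TPM in brain against 8.32 ± 2.0 TPM (log2 2.08, adjusted p = 0.00275), and Pax5 at 5.71, 21.4, 27.2 and 18.4 against 1.51, 0.923, 1.45 and 1.52 TPM. In both, the shallow IgG replicate 1 had the lowest brain value. The signals of that border were lower in brain: Wnt1 was at 5.73, 17.5, 9.21 and 3.27 against 49.1, 42.6, 47.3 and 42.7 TPM and Fgf8 at 2.88, 22.7, 27.6 and 9.88 against 88.4, 40.2, 68.0 and 70.5 TPM (log2 -2.43 and -2.33). Atoh1, the proneural factor of the rhombic lip, was listed at 0 in all 4 brain libraries and ranged over 7.71 to 18.0 TPM in the embryo.

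Progenitor genes were also higher in brain. Of 22 radial glia and neuroepithelial genes, 17 were higher in brain and 3 in the embryo (median log2 1.28). Ttyh1, a membrane protein of neural stem cells, was at 297, 221, 169 and 150.1 TPM against 13.7, 16.4, 12.7 and 11.5 TPM, and Ptprz1, a receptor phosphatase of radial glia, at 69.9 ± 11.9 against 3.40 ± 0.950 TPM. Nestin (Nes) was at 666 ± 125 against 126 ± 14.6 TPM. The pan-neuroepithelial Sox2 differed little by comparison (304 ± 38.6 against 208 ± 34.3 TPM, log2 0.55, adjusted p = 0.00441), and Hes1, a Notch target also used outside the nervous system, was lower in brain (log2 -0.90). Among 20 proneural factors and partners, 15 were higher in brain and 4 in the embryo. Neurog2 was at 380.1, 349, 351 and 344 TPM in brain, within a narrow range, and at 60.6, 44.9, 46.1 and 52.3 TPM in the embryo (log2 2.79 ± 0.10). Neurog3, the endocrine pancreas and ventral spinal cord member of the family, was lower in brain at 0.512 ± 0.559 against 13.03 ± 1.66 TPM. Genes of later glia were mixed, with 6 of 14 higher in brain and 5 higher in the embryo. The glutamate transporter Slc1a2 (56.5 ± 14.8 against 5.08 ± 0.961 TPM) was among the first, and Pdgfra (2.08 ± 0.915 against 32.6 ± 2.61 TPM), which also marks trunk mesenchyme, among the second.

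Of 26 RNA-binding and splicing regulators of neurons and epithelia, 19 were higher in brain and 5 in the embryo (median log2 1.04). Celf3, Celf4, Celf5 and Srrm3, all neuronal regulators, had log2 differences of 2.63, 3.45, 3.87 and 3.09. Ptbp1, which represses neuronal exons, was at 101, 101, 74.2 and 77.8 TPM in brain and 240.2, 226, 203 and 209 TPM in the embryo, whereas its neuronal paralog Ptbp2 was at 104, 110.1, 79.8 and 77.6 against 52.8, 40.9, 37.0 and 40.2 TPM. The tissues did not overlap in either gene (adjusted p = 4.94e-06 and 5.23e-05). The epithelial regulators Esrp1 and Esrp2 were lower in brain, at 0.389 ± 0.355 against 6.11 ± 0.921 TPM and 1.605 ± 0.354 against 13.01 ± 1.57 TPM. Guidance receptors were mostly higher in brain (20 of 31, with 6 higher in the embryo). Dcc, the netrin receptor, was at 81.4 ± 13.5 against 9.54 ± 2.49 TPM, and the repulsive ligand Slit3, also made by mesenchyme, at 5.99 ± 1.53 against 29.9 ± 2.65 TPM.

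Hox genes were all but missing from the brain libraries. The 4 Hox clusters encode homeobox factors that give the hindbrain and trunk their position, in an order from paralog group 1 at the front to group 13 at the tail. All 12 members of groups 1 to 4 and all 22 tested members of groups 5 to 13 were higher in the embryo (median log2 -5.77 and -4.98). Of these, 2 and 10 were listed at 0 in all 4 brain libraries, so the medians rest on fitted values that depend on the pseudocount (from -7.98 to -3.73 in groups 1 to 4 and from -7.88 to -2.97 in the others, between pseudocounts of 0.1 and 5). In 9 of 12 and 15 of 22 members every brain library was under 1 TPM. Such genes passed the filter only through the embryo and had to differ in this direction, so the counts are a description. The same holds for 13 of 26 cardiac, 9 of 17 skeletal muscle, 1 of 12 smooth muscle and 11 of 22 liver and yolk sac genes described next, and for 6 of 18 somite, 5 of 19 limb, 5 of 15 urogenital, 6 of 17 gut and 4 of 17 surface ectoderm genes. Summed over 35 Hox genes, brain libraries held 11.9, 10.7, 3.07 and 7.86 TPM and embryo libraries 3379, 2483, 2409 and 2610 TPM. The untreated embryo libraries held 2485 and 2392 TPM. E16.5 brain, not tested here, held between 526 and 670 TPM. Hox transcripts were thus well above 0 at E16.5 and close to 0 at E12.5.

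The absence reached the front of the clusters. Paralog group 1, which is active in the hindbrain, summed to 0, 1.19, 0 and 0 TPM in brain and to 50.1 to 75.3 TPM in the embryo. Group 2 summed to 1.64, 0, 0.105 and 0 TPM against 152 to 218 TPM. Hoxa2, the member with the most anterior limit in the hindbrain, was at 1.64, 0, 0 and 0 TPM in brain and 134, 90.8, 94.6 and 109 TPM in the embryo (log2 -6.39 ± 0.31, adjusted p = 1.71e-06). In the embryo, group 9 was the most abundant, at 586 to 823 TPM, and in brain its sum was at most 0.697 TPM. As a share of the embryo mean, the brain mean ran from 0.0501% in group 9 to 2.70% in group 13. Hoxd10, Hoxc11 and Hoxd12 were listed only for the embryo, at 35.9 ± 5.68, 25.03 ± 3.74 and 18.2 ± 3.56 deposited TPM (n = 4), and were not tested.

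**Figure D3:**
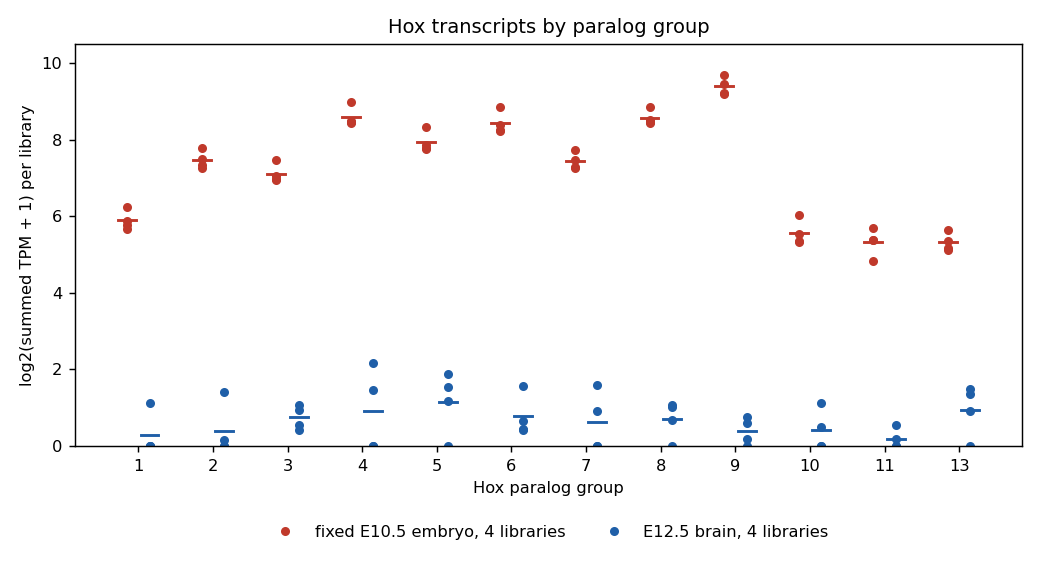
Summed TPM of the Hox genes of each paralog group, as log2(sum + 1) per library, in fixed E10.5 embryo (red) and E12.5 brain (blue), 4 libraries each, with a bar at the mean; group 12 has no gene listed for both tissues. Every embryo library exceeded every brain library in every group, and the embryo was highest at group 9.

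Heart genes were among those with the widest gaps. All 26 cardiac genes tested were higher in the embryo (median log2 -5.69, or -7.91 and -3.52 with pseudocounts of 0.1 and 5, with 6 of them listed at 0 in all brain libraries), and their summed level was 5346 to 7038 TPM there against 30.9 to 76.6 TPM in brain. Tnnt2, the cardiac troponin T, was at 126, 182, 187 and 156 TPM in the embryo and 0.753, 0.264, 1.04 and 0 TPM in brain. The transcription factors Nkx2-5, Gata4 and Gata6 were listed at 0 in all 4 brain libraries, against 44.0 to 54.5, 39.6 to 51.6 and 20.1 to 31.5 TPM in the embryo. Much of the brain sum came from Tnni3, the cardiac troponin I, at 19.8, 14.7, 50.9 and 22.4 TPM in brain against 98.8, 134, 139 and 108 TPM, which was lower in brain than in the embryo but above the brain mean of every other heart gene tested. The smallest differences were those of Mef2c and Ryr2, both also expressed in neurons (log2 -0.73 and -0.83, adjusted p = 0.0426 and 0.0237), and both calls were lost when the first embryo IgG library, among others, was left out. Skeletal muscle genes were higher in the embryo in 15 of 17 cases and smooth muscle genes in 9 of 12, with none higher in brain. Myog, the myogenic factor, was at 0.455 ± 0.911 against 28.4 ± 6.29 TPM, and Acta2, the smooth muscle actin, at 0, 7.44, 1.66 and 3.54 against 434, 526, 496 and 474 TPM.

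Promoter sequence of the heart genes was examined next. The CArG box, bound by serum response factor in muscle promoters, was searched on both strands in the same windows. It was present in 1.69% of all tested genes with a window and in 3 of 22 such cardiac genes (13.6%). Other lists also held it, in 2 of 9 smooth muscle, 1 of 10 skeletal muscle, 2 of 14 neural factor and 2 of 19 splicing regulator genes. The median share of G and C in the windows was 55.2% in the cardiac list and 60.3% over all genes with a window. The part of base composition in the motif shares was not tested. The 3 cardiac windows were those of Actc1, Myl7 and Myl3, all among the genes with the largest excess in the embryo, and their 250 bases before the start site are shown with the box in capitals. They lie at chr2:114052876-114053125 (minus strand), chr11:5898783-5899032 (minus strand) and chr9:110763428-110763677 (plus strand) of GRCm38.p6.
Actc1: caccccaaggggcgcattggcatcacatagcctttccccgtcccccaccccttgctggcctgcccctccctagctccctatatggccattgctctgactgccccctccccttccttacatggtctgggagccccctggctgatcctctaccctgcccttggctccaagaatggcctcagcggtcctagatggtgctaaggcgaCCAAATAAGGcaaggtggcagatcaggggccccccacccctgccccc
Myl7: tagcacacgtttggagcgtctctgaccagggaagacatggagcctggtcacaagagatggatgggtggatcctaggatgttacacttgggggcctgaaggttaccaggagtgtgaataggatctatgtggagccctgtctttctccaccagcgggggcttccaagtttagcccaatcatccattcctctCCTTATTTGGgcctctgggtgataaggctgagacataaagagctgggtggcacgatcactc
Myl3: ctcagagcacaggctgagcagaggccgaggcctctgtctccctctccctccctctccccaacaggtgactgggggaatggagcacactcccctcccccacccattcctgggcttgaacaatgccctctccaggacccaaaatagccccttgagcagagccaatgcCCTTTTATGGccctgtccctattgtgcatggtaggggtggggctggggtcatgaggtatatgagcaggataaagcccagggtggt
The boxes begin 47, 61 and 85 bases before the respective start sites. The other 19 cardiac genes hold no such letters in their windows, which says nothing about the factor.

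Most liver bud and yolk sac genes were lower in brain, with a summed level of 145 to 233 TPM there against 1127 to 1360 TPM in the embryo. Of 22 such genes tested, 19 were higher in the embryo and none in brain (median log2 -2.52), and 8 were listed at 0 in all brain libraries. This median ran from -5.32 with a pseudocount of 0.1 to -1.4 with one of 5. Afp, the fetal serum protein, was at 267, 199, 195 and 219 TPM in the embryo. Albumin (Alb) was at 0.571 ± 0.784 TPM in brain against 67.5 ± 9.81 TPM, and the apolipoprotein Apoa1 at 1.63 ± 1.35 against 87.4 ± 14.99 TPM. Hepatocyte promoters carry sites for HNF1, whose core reads GTTAAT. Its letters were present in 9 of 20 genes of this list with a window (45.0%) and in 5.70% of all genes with one. Other lists held them too, in 3 of 10 pan-neuronal, 3 of 12 limb and 5 of 22 cardiac genes, against 0 of 10 skeletal muscle genes. The median share of G and C was 52.2% in the windows of the liver and yolk sac list and 60.3% over all genes with a window. The Afp window (chr5:90490464-90490713, plus strand), shown because Afp was listed at 0 in all brain libraries, holds GTTAAT 105 bases before the start site, in capitals.
Afp: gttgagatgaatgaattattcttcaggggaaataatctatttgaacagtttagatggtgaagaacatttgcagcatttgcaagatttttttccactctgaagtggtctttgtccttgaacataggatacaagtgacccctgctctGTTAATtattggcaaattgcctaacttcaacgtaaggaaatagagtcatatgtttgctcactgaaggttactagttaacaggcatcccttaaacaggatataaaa
The windows were also searched for the TATA box TATAAA, for the E-boxes CAGCTG of myogenic factors and CATCTG of neuronal ones, and for the SOX motif ATTGTT. The TATA box letters were present in 9.62% of all genes with a window, in 10% of those 2-fold higher in brain and in 13.9% of those 2-fold higher in the embryo. For CAGCTG the shares were 18.4%, 22.3% and 18.37%. It was in 8 of 18 synapse, 6 of 11 macrophage, 5 of 10 skeletal muscle, 5 of 10 pan-neuronal and 0 of 18 progenitor genes. For CATCTG the shares were 14.5%, 16.53% and 15.3%, and for ATTGTT 7.56%, 8.20% and 6.95%. The GATA factor motif AGATAA was present in 6 of 11 erythroid genes (54.5%) and in 8.40% of all genes with a window. It was also in 3 of 8 urogenital, 4 of 13 retinoic acid and 6 of 22 cardiac genes, against 0 of 11 macrophage genes. The median share of G and C was 53% in the erythroid windows. It was 60.7% in genes 2-fold higher in brain and 58.3% in those 2-fold higher in the embryo. The part of base composition in these motif shares was not tested. A CArG box can contain TATAAA, and no other of these motifs contains another.

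Mesoderm, limb, endoderm and skin were represented mainly in the embryo. Somite and sclerotome genes were higher there in 13 of 18 cases, limb genes in 15 of 19, urogenital genes in 11 of 15, gut endoderm genes in 11 of 17 and surface ectoderm genes in 14 of 17. Twist1, a mesenchymal bHLH factor, was at 7.17, 10.46, 11.2 and 5.80 TPM in brain and 279, 319, 277 and 280.3 TPM in the embryo (log2 -4.95 ± 0.19, adjusted p = 5.71e-07). Meox1, a somite homeobox factor, was listed at 0 in all brain libraries against 68.4 to 100.5 TPM. Pitx1, which specifies the hindlimb, was at 0.815 ± 0.951 against 85.9 ± 31.2 TPM. The epithelial keratin Krt18 and the junction protein Cldn6 were at 11.01 ± 6.76 against 292 ± 25.5 TPM and 3.38 ± 2.26 against 114 ± 20.2 TPM.

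Among the members higher in brain were factors that neural tissue also uses. Uncx, a homeobox factor of sclerotome and of midbrain neurons, was at 159, 164, 132 and 139 TPM in brain and 30.8, 26.6, 25.6 and 28.1 TPM in the embryo. Shox2, used in limb and in thalamus, was at 102 ± 26.6 against 12.4 ± 3.25 TPM, and Lhx1, of kidney and of midbrain and hindbrain neurons, at 73.5 ± 6.45 against 10.6 ± 4.84 TPM. Tfap2b, a skin and neural crest factor that midbrain neurons also use, was at 40.5 ± 9.59 against 11.9 ± 2.25 TPM. Neural crest genes split, with 6 of 19 higher in brain and 8 in the embryo, against 29.3% and 19.6% of all genes tested. Sox10 and Erbb3, which mark migrating crest and Schwann cell precursors, were at 0.889 ± 0.326 against 26.9 ± 3.96 TPM and 0.352 ± 0.536 against 11.4 ± 1.44 TPM. Prph, a neurofilament of peripheral neurons that is also found in central neurons, was higher in brain (73.4 ± 16.4 against 7.51 ± 3.31 TPM). Genes of the meninges and choroid plexus, which adjoin the brain, were higher in the embryo in 10 of 14 cases, Foxc2 and Ttr among them (1.83 ± 1.05 against 35.1 ± 2.07 TPM and 3.23 ± 3.36 against 93.6 ± 13.4 TPM). Folr1, of the choroid plexus and neural tube, was higher in brain (17.4 ± 5.51 against 6.59 ± 1.76 TPM, adjusted p = 0.00445).

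**Figure D4:**
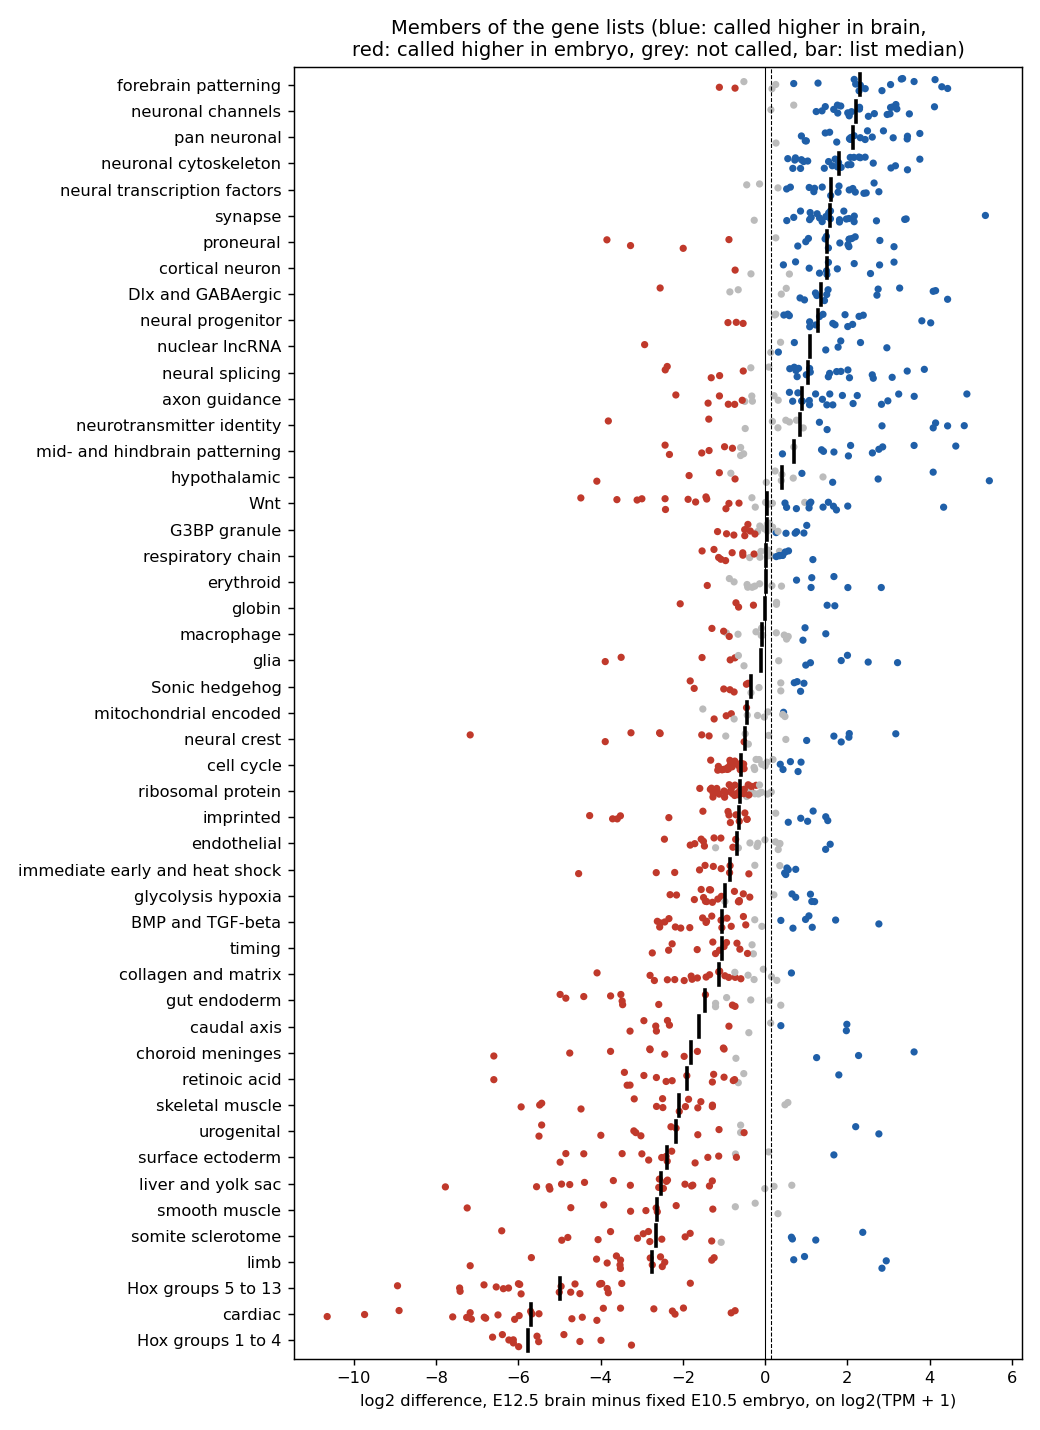
Log2 difference of each tested member (points) of 49 gene lists, E12.5 brain minus fixed E10.5 embryo on log2(TPM + 1), with list medians as bars and the median of all genes as a dashed line at 0.13. Neuronal lists lie to the right, and Hox, heart, limb, somite, smooth muscle, liver and yolk sac lists lie to the left.

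Genes of the BMP pathway differed in both directions, and the activity of the pathway was not tested. BMP ligands pattern the dorsal neural tube, heart and limb, and secreted antagonists hold them in check. Of 27 genes of the BMP and TGF-beta pathways, 7 were higher in brain and 18 in the embryo (median log2 -1.05). The ligand Bmp4 was at 19.5, 14.7, 23.2 and 16.2 TPM in brain and 104, 115, 117 and 113 TPM in the embryo (log2 -2.56 ± 0.14, adjusted p = 2.85e-06). The antagonists Fst, Chrd and Nog were higher in brain, at 43.4 ± 11 against 5.40 ± 0.458, 18.5 ± 1.28 against 4.999 ± 0.985 and 28.9 ± 7.89 against 13.1 ± 2.29 TPM, with adjusted p of 5.19e-06, 3.75e-05 and 0.00254. The target genes named were lower in brain. Id1 was at 117, 117, 114 and 86.2 against 380.5, 419.8, 385 and 366 TPM, and the inhibitory Smad6 at 7.50 ± 3.13 against 49.7 ± 9.22 TPM. Msx1 and Msx2 had log2 differences of -2.44 and -2.54. Chrd, Nog, Id1 and Msx1 were picked with their values in view, and other members of the list are not shown. No library of the tissues overlapped in Bmp4, Id1 or Fst.

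Most transcripts of the retinoic acid pathway were lower in brain, and the activity of the pathway was not tested. Retinoic acid made by trunk mesoderm patterns the hindbrain, spinal cord, heart and limbs. Of 17 pathway genes, 14 were higher in the embryo and 1 in brain (median log2 -1.91). Among the 17, 4 were under 1 TPM in every brain library and passed the filter only through the embryo. Aldh1a2, the main synthesizing enzyme, was at 0, 4.21, 0 and 0 TPM in brain and 134, 159, 144 and 145 TPM in the embryo. The receptors Rarb and Rarg, of which Rarb is itself a target, were at 1.25 ± 1.05 against 15.1 ± 1.11 and 3.45 ± 3.44 against 32.4 ± 6.73 TPM. The exception was Cyp26b1, an enzyme that breaks retinoic acid down, at 21.1, 31.4, 45.5 and 15.99 TPM in brain against 9.13, 7.84, 5.60 and 5.68 TPM (log2 1.79, adjusted p = 0.00154).

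Wnt genes showed no common direction, with 13 of 33 higher in brain and 13 in the embryo, and their median changed sign with median ratio scaling, as did those of the erythroid, respiratory chain and granule lists. Wnt8b, a forebrain ligand, was at 52.0, 67.3, 22.2 and 12.6 TPM in brain, with the IgG libraries highest, and 1.07, 0.854, 0.783 and 0 TPM in the embryo. Wnt7b was at 168 ± 44.0 against 48.8 ± 7.79 TPM (adjusted p = 6.06e-05). Ligands of lung, heart, kidney and ectoderm were lower in brain, among them Wnt2 (0.370 ± 0.740 against 28.1 ± 9.66 TPM), Wnt6 (4.66 ± 5.40 against 28.1 ± 2.60 TPM) and Wnt4 (13.4 ± 5.28 against 73.0 ± 6.68 TPM). In the Sonic hedgehog pathway 4 of 15 genes were higher in brain and 7 in the embryo, against 29.3% and 19.6% of all genes tested. Its target Nkx6-1, a ventral neural tube factor, was at 18.2 ± 6.02 against 60.8 ± 10.3 TPM, and the co-receptors Gas1 and Boc had opposite differences (log2 -1.01 and 0.94).

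Blood, vessel and macrophage transcripts were present in both tissues. Mouse red cells switch from embryonic globins (Hbb-y, Hbb-bh1, Hba-x), made in the yolk sac, to adult ones. Hbb-bh1 was at 768, 863, 906 and 1048 TPM in brain and 3666, 4022, 4018 and 3276 TPM in the embryo (log2 -2.07 ± 0.11, adjusted p = 3.06e-06). Hbb-y did not pass the test, at 4417, 4566, 5637 and 5953 against 3888, 4456, 4535 and 4004 TPM (adjusted p = 0.0525). The adult beta chains Hbb-bt and Hbb-bs were higher in brain, at 89.4 ± 23.6 against 31.4 ± 10.54 and 64.3 ± 12.8 against 19.1 ± 2.93 TPM. Globin genes are close copies, so reads can be split between them and single members are uncertain. Of 16 other red cell genes, 6 were higher in brain and 1 in the embryo. The embryo-side member was Klf1, the activator of adult globin (5.68 ± 1.62 against 16.4 ± 1.42 TPM), and Tal1, which midbrain and hindbrain neurons also use, was among those higher in brain (28.2 ± 6.42 against 8.14 ± 1.92 TPM).

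Endothelial and pericyte genes were higher in the embryo in 10 of 22 cases and in brain in 2. Plvap, a protein of leaky vessels, was at 10.8, 24.0, 49.95 and 34.1 TPM in brain and 144, 152, 145 and 143 TPM in the embryo (log2 -2.45, adjusted p = 0.000307). Mfsd2a, a lipid transporter of the blood-brain barrier, was at 83.0, 86.2, 74.6 and 80.3 against 32.5, 26.6, 30.8 and 25.02 TPM (log2 1.47, adjusted p = 1.22e-05). The barrier glucose transporter Slc2a1, which embryo tissues also use, was lower in brain (133 ± 22.3 against 390 ± 28.8 TPM). Of 16 macrophage genes, 3 were higher in brain (Cx3cr1, Trem2 and Laptm5) and 3 in the embryo (Fcer1g, Spi1 and Mrc1). Both counts are below the 29.3% and 19.6% of all genes tested. The calls of Trem2 and Fcer1g were lost with several single libraries left out. The summed level of the macrophage genes overlapped between the tissues, at 107 to 205 and 148 to 168 TPM. Cx3cr1, the fractalkine receptor of microglia, was at 4.75, 5.29, 7.94 and 9.25 TPM in brain and 2.202, 2.89, 1.12 and 1.11 TPM in the embryo (adjusted p = 0.00439), both low.

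Genes of developmental timing were lower in brain. The RNA-binding protein LIN28 and its partners keep early embryonic cells immature by blocking let-7 microRNAs. Of 14 genes of this group, 12 were higher in the embryo and none in brain (median log2 -1.06). Lin28a was at 11.7, 5.79, 7.67 and 6.68 TPM in brain and 45.5, 45.8, 34.1 and 38.6 TPM in the embryo (log2 -2.26 ± 0.19, adjusted p = 2.96e-05). Hmga2, a chromatin protein and let-7 target, was at 40.8, 33.8, 43.2 and 37.6 against 273, 321, 258 and 218 TPM, and Hmga1 at 73.9 ± 3.96 against 381 ± 22.3 TPM. Lin28b, the paralog, did not pass the test (10.51 ± 3.25 against 12.7 ± 1.86 TPM, log2 -0.29, adjusted p = 0.23). Imprinted genes were higher in the embryo in 14 of 21 cases and in brain in 6. The neighbours H19, a non-coding RNA, and Igf2, a fetal growth factor, were at 283, 494, 385 and 489 against 7098, 8188, 8130 and 7747 TPM and 55.1, 102, 68.1 and 76.2 against 860.2, 988, 889.5 and 867 TPM. Phlda2, a placental growth restrictor, was listed at 0 in all brain libraries against 10.1 to 14.6 TPM. Nnat, a small membrane protein of neural tissue, was higher in brain (4331 ± 161 against 1512 ± 151 TPM, log2 1.52), as was the non-coding Meg3 (303 ± 19.7 against 110 ± 21.3 TPM, adjusted p = 2.79e-05).

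Several housekeeping groups were lower in brain. Ribosomal protein genes were higher in the embryo in 29 of 38 cases and in brain in none (median log2 -0.61). Rpl32 was at 1266, 1377, 881 and 859 TPM in brain and 2920, 3279, 3215 and 3526 TPM in the embryo. Within brain the anti-G3BP1 libraries of Rpl32 were lower, which was not tested. Many processed copies of these genes exist, so their values are uncertain. DNA replication and mitosis genes were higher in the embryo in 21 of 34 cases and in brain in 5. Tyms, which makes thymidylate, was at 27.1 ± 7.69 against 67.2 ± 1.87 TPM, and the inhibitor Cdkn1b, which takes neurons out of the cycle, at 63.9 ± 8.45 against 34.4 ± 4.09 TPM. Glycolysis and hypoxia genes were higher in the embryo in 18 of 25 cases. Aldoa and Ldha, an aldolase and the lactate dehydrogenase A chain, were at 214 ± 22.6 against 951 ± 7.43 TPM and 202 ± 36.8 against 660.5 ± 33.4 TPM. Pfkm, the muscle and brain phosphofructokinase, was higher in brain (118 ± 13.5 against 50.4 ± 4.54 TPM). Respiratory chain genes of the nucleus had no common direction (8 higher in brain and 9 in the embryo of 25, against 29.3% and 19.6% of all genes tested).

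Exonic length moved with these calls across all protein-coding genes. Genes were ranked by exonic length into 5 classes of about equal number. In the shortest class (median 1575 bases) 16.2% of genes were called higher in brain and 36.3% higher in the embryo. In the longest class (median 9554 bases) these were 42.2% and 12.54%. Ribosomal protein genes are short and many neuronal channel and synapse genes are long, and the part of length in their differences was not tested. Among processed pseudogenes, 23.2% were called 2-fold higher in brain and 5.81% 2-fold higher in the embryo.

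**Figure D5:**
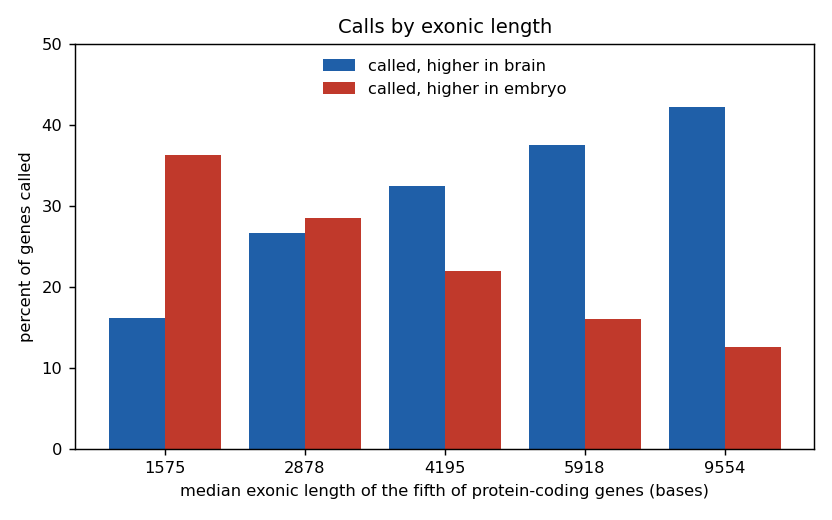
Percent of protein-coding genes called higher in E12.5 brain (blue) and in fixed E10.5 embryo (red) in 5 classes of genes by exonic length, labelled with the median length of each class in bases. The brain share went from 16.2% in the shortest class to 42.2% in the longest, and the embryo share from 36.3% to 12.54%.

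Transcripts of the targeted protein, of its paralog G3bp2 and of Caprin1 differed by less than 2-fold. G3bp1, whose protein the antibody binds, was at 148, 164, 154 and 143 TPM in brain and 222, 216, 196 and 184 TPM in the embryo, lower in every brain library (log2 -0.42 ± 0.08, adjusted p = 0.00193). Its paralog G3bp2 was at 70.4 ± 6.04 against 58.4 ± 4.05 TPM (log2 0.27, adjusted p = 0.0357), overlapped between the tissues, and lost its call with median ratio scaling and with most single libraries left out. Caprin1, a partner of both in granules, was at 123 ± 15.6 against 115 ± 10.4 TPM and did not pass the test (adjusted p = 0.396). Of 24 granule genes, 6 were higher in brain and 8 in the embryo, against 29.3% and 19.6% of all genes tested. In each direction 1 of them reached 2-fold. The summed level of the granule genes was 3310 to 3554 TPM in brain and 4202 to 4440 TPM in the embryo, without overlap. Nuclear long non-coding RNAs were higher in brain in 7 of 10 cases. Miat, a nuclear RNA of neurons, was at 1549, 1223, 995 and 852 TPM in brain and 204, 128, 112 and 146 TPM in the embryo (log2 2.96 ± 0.17, adjusted p = 3.47e-06). Differences between the antibody groups within brain, here and in Tbr1 and Wnt8b, were not tested.

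Xist differed as well, and the part of embryo sex in the results was not tested. Xist, the RNA of the inactive X chromosome, was at 316, 272, 256 and 226 TPM in brain and 151, 156, 92.9 and 124 TPM in the embryo (log2 1.04 ± 0.11, adjusted p = 0.000114). The Y-linked Ddx3y stayed below 1 TPM in each of the 8 libraries and was not tested. Eif2s3y and Uty, also Y-linked, are listed for brain only, at means of 1.16 and 1.06 TPM. The tissue difference was then compared between anti-G3BP1 and IgG libraries. It depended on the antibody at 3 genes (0.0148% of 20248, limma interaction term, adjusted p under 0.05) and at 1781 before adjustment. In all 3 the antibody groups of brain did not overlap, which their choice by this term favours. Fam183b was at 24.0, 15.6, 0 and 0 TPM in brain, listed at 0 in both anti-G3BP1 libraries, and at 129.9, 121, 154 and 150.2 TPM in the embryo. Gm9174 and Rpl30-ps10, both processed pseudogenes, were listed at 0 in both IgG libraries of brain and stood at 48.6 and 71.9 TPM and at 14.7 and 19.2 TPM in the anti-G3BP1 libraries.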

How the data were processed

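RNA was extracted with TRIzol, and poly(A) libraries were prepared (VAHTS Universal V6), per the labels. The deposited expression values are TPM per gene and library, computed by the authors with the genes of each tissue normalized in a table of their own. The submitters' processing notes name featureCounts 2.0.1 of Subread, the aligners HISAT2 2.2.1 and BWA 0.7.17, GATK 4.5.0.0 with Picard 3.1.1, and the builds mm10 and GRCm38. Read totals were not used. The deposited editing tables give counts of reads covering each site, used here for depth. In the tables read, 10 further columns of values were not used.

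TPM were rescaled to 1000000 over the 26596 shared genes, and log2(TPM + 1) was fitted with limma 3.58.1 (R 4.3.3), with tissue and antibody as terms and an empirical Bayes trend. The test took genes reaching 1 TPM in 2 or more of the 8 libraries, with Benjamini-Hochberg adjustment over all of them and a threshold of 0.05. A difference on log2(TPM + 1) understates the change of low genes. Same-numbered replicates did not deviate together (correlations of deviations from -0.0329 to 0.0271), so no pairing was used. Tissues were compared across tables normalized separately.

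Genes named were, by rule, the 10 with the largest called difference in each direction at 10 TPM or more without overlap between the tissues, up to 4 called members of each list by size plus the largest exception, G3bp1, G3bp2 and Caprin1, and any member of the globin, sex, macrophage, Hox, timing and cardiac lists. Chat, Chrd, Emx2, En2, Esrp1, Fam183b, Folr1, Gm9174, Id1, Meg3, Msx1, Nog, Ptbp1, Ptbp2, Rpl30-ps10, Sox2, Syn1, Tbr1, Tubb3, Unc13a, Wnt4 and Wnt7b, and the genes in the plot of regional factors, were picked with their values in view. The members and lists were chosen with earlier results of these data known. Alternatives varied the pseudocount, filter, scaling, antibody term, replicate block, moderation and libraries. Protein-coding genes alone, and rescaling without ribosomal protein and mitochondrial genes, were added after seeing the data. Some genes are not reported here.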

Additional observations from a re-analysis of the deposited data

Results flagged for a closer look

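In groups of 4 libraries, 23 of 288 groups of the genes named held 1 library whose distance to the nearest other, divided by the range, was above Dixon's critical value of 0.83, and chance alone gives about 1 in 20. Of these libraries, 6 each were brain IgG replicates 1 and 2, the first of which was the shallowest. A ratio of 1 was reached where 1 brain library alone held the transcript. These were Actc1 (2.40 TPM in IgG replicate 1), Aldh1a2 (4.21 TPM in IgG replicate 2), Hoxa2 (1.64 TPM in IgG replicate 1), Myl7 (2.31 TPM in IgG replicate 2), Myog (1.82 TPM in IgG replicate 2), Tnni1 (1.08 TPM in IgG replicate 1) and Wnt2 (1.48 TPM in anti-G3BP1 replicate 2). In brain libraries the ratio stood apart for Cldn6 (0.947, IgG replicate 1 low at 0 TPM), Id1 (0.918, anti-G3BP1 replicate 2 low at 86.2 TPM), Nr2e1 (0.908, IgG replicate 2 low at 53.6 TPM), Sox2 (0.883, IgG replicate 2 high at 362 TPM). It did so too for Tal1 (0.908, IgG replicate 1 low at 18.7 TPM), Tfap2b (0.830, IgG replicate 1 low at 26.4 TPM), Tubb3 (0.897, IgG replicate 2 high at 2768 TPM). In embryo libraries the ratio stood apart for Cdkn1b (0.846, IgG replicate 1 high at 40.5 TPM), Gm9174 (0.983, anti-G3BP1 replicate 1 high at 24.4 TPM), Nkx2-5 (0.867, anti-G3BP1 replicate 2 low at 44.0 TPM), Pax5 (0.898, IgG replicate 2 low at 0.923 TPM). It did so too for Sox2 (0.839, IgG replicate 1 high at 259 TPM), Syt4 (0.958, anti-G3BP1 replicate 2 low at 0.256 TPM), Tnni1 (0.835, IgG replicate 1 low at 142 TPM), Twist1 (0.921, IgG replicate 2 high at 319 TPM). It did so too for Unc13a (0.834, IgG replicate 1 high).

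The difference of brain minus embryo itself differed between anti-G3BP1 and IgG libraries at 3 genes. The interaction on the log2 scale was -4.62 for Fam183b, 5.68 for Gm9174 and 4.37 for Rpl30-ps10 (adjusted p = 0.00908, 0.00908 and 0.0274, limma). The first was listed at 0 in both brain anti-G3BP1 libraries and the other pair in both brain IgG libraries.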

How the results depend on the processing

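The counts of genes called higher in either tissue stayed within 1.5 times of 5932 and 3972 under all alternatives run except IgG libraries alone, 2 against 2, which gave 3892 and 2539. Leaving out 1 library at a time gave 4958 to 5751 and 3285 to 3936. A pseudocount of 5 took the 2-fold counts to 1798 and 1123, since it shrinks differences of low genes. The interaction, called at 3 genes, was called at 0 with a pseudocount of 5 and at 0 to 15 with 1 library left out, with 7 without brain IgG replicate 1, 15 without brain IgG replicate 2 and 0 without any other library. The replicate block gave 5735 and 3838 genes, and the replicate numbers are not shown to pair the samples. Among 155 genes named, the direction reversed for Caprin1 with median ratio scaling (-0.114) and for Gm9174 and Rpl30-ps10 in the anti-G3BP1 libraries alone (1.47 and 0.865), and the cause was not tested. Calls were lost in 67 other instances, most often for G3bp2 and Mef2c. Read depth limits low genes most in brain IgG replicate 1, where a listed 0 shows only that none was detected at this depth.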
